A study of Mus musculus with 12 samples.

Results

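The nuclear genes for the subunits of the 5 oxidative phosphorylation complexes were followed in dendritic cells (DCs) from mouse spleen. A gene was taken where its symbol began with Ndufa, Ndufb, Ndufc, Ndufs or Ndufv, was one of Sdha to Sdhd, began with Uqcr, with Cox4 to Cox8, or with Atp5. Cox6a2 and the assembly factors whose names begin with Ndufaf were left out. This gave 79 of the 17097 genes that had a probe set with a single gene symbol: 35 in complex I, 4 in complex II, 7 in complex III, 16 in complex IV and 17 in complex V. Symbols, not measured values, chose them. The rule also took Ndufs5-ps, a transcribed pseudogene whose signal cannot be told from that of the near-identical gene Ndufs5.

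The study compared miR-142 knockout (KO) mice with wild-type (WT) littermates, all C57BL/6 males of 10 weeks and matched for age. DCs were taken by positive selection from single spleens, were either left without stimulation or given lipopolysaccharide (LPS), and their RNA was hybridised to 1 Affymetrix array each. There were 12 arrays in 4 groups of 3: WT unstimulated, WT LPS, KO unstimulated and KO LPS. The dose and duration of LPS, and the way the knockout was made, are not stated in the labels. The descriptions of the samples speak of T cells while their titles, sources and cell type fields say DCs. All 8 DC markers tested (Itgax, Flt3, Zbtb46, Cd74, H2-Ab1, H2-Aa, H2-Eb1 and Ciita) lay above the median gene on all 12 arrays. So did 3 of the 6 T cell markers measured. In RNA from whole cell preparations, fewer cells of a type and less RNA per cell cannot be told apart.

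Complex I (NADH dehydrogenase) and complex II (succinate dehydrogenase) pass electrons to ubiquinone, complex III passes them on to cytochrome c, and complex IV (cytochrome c oxidase) hands them to oxygen. Complexes I, III and IV pump protons as they do so, and complex V, the ATP synthase, uses the return of those protons to make ATP. All but complex II also hold subunits encoded in mitochondrial DNA. In DCs, activation through Toll-like receptors is known for a turn toward glycolysis, and in mouse bone marrow DCs nitric oxide can block the respiratory chain. The 13 mitochondrially encoded subunits were not analysed here. Coding genes such as Cox7b, Ndufa13, Ndufb1, Ndufb6, Ndufs5 and Uqcrh, which the rule also describes, had no probe set with a single symbol and were not analysed here.

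The gene deleted in all 6 KO samples encodes a microRNA whose hairpin gives 2 mature strands. They are shown because they define the comparison, with the seed, bases 2 to 8, in capitals, from RefSeq on GRCm38.p6 (plus strand of chromosome 11, chr11:87756867-87756887 for the 5p and chr11:87756903-87756925 for the 3p strand).
mmu-miR-142a-5p: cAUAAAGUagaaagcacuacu
mmu-miR-142a-3p: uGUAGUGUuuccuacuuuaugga
The seeds differ, so the strands belong to different seed families. Mir142 itself had no probe set with its symbol alone, so no probe set was at hand to check the genotype labels. Sites for these seeds in the subunit transcripts were not analysed here.

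Promoter windows (RefSeq, GRCm38.p6, 250 bases before to 50 after the annotated start) matched 64 of the 79 subunit genes by gene identifier, out of 27025 genes with a window. Subunit genes are textbook targets of the nuclear respiratory factors NRF1 and NRF2 (GABP, an ETS factor) and of YY1 and SP1. Exact matches on either strand were counted. The NRF1 core GCGCATGC was found in 10 windows (15.6%, against 2.8% of all windows), the ETS core CCGGAAG in 14 (21.9%, against 9.12%) and the YY1 core AAGATGGC in 9 (14.1%, against 2.88%). Of those 9 windows, 7 were among the 30 complex I windows and 2 among the 15 complex V windows. The SP1 box GGGCGG was found in 27 (42.2%, against 35.9%), and the TATA box TATAAA in 8 (12.5%, against 14.2%). A match here is a description of letters in a window.

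The 250 bases before the start of 3 genes to which the KO comparisons below return are shown, with motif matches in capitals. The Ndufs3 window (minus strand, chr2:90904722-90904971) holds the SP1 box in reverse as CCGCCC at both capital stretches, the second of which runs into a forward ETS core. The Ndufs7 window (plus strand, chr10:80249199-80249448) holds a forward TATA box. It lies within the gene's annotated span, so the start it precedes is not the outermost one. The Uqcrc1 window (plus strand, chr9:108936398-108936647) holds none of the 5 motifs upstream of the start.
Ndufs3: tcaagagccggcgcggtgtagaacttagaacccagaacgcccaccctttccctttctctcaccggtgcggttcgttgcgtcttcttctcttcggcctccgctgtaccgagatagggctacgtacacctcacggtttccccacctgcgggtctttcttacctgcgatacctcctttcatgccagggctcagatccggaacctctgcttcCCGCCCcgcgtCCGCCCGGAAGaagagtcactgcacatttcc
Ndufs7: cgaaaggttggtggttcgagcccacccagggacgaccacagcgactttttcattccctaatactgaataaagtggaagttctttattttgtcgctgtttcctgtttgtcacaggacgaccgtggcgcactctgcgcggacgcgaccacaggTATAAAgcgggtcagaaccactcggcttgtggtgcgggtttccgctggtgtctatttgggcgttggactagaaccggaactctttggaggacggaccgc
Uqcrc1: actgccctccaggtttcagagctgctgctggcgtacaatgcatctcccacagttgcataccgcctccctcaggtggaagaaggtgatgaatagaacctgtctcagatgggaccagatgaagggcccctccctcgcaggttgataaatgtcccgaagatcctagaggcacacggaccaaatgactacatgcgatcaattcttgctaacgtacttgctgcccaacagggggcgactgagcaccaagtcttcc
In the 50 bases after the start, or spanning the start, Ndufs3 has a further ETS core, Ndufs7 a YY1 core and Uqcrc1 an NRF1 core.

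Values are log2 signals, so a difference of 1 is a 2-fold change, and levels of different probe sets are not set against each other. Array medians over all probe sets ran from 2.65 to 2.72. KO LPS array 2 stood apart from the other 11 arrays: its correlations with them reached at most 0.958, against 0.967 to 0.991 among the others, and its Gapdh control probe sets differed by 3.04 between the 3' and the middle position, where the other arrays gave 1.53 to 1.86. The counts of called genes, the medians and the differences of named genes that rest on it are also given without it. The 8 DC markers had median KO minus WT differences of -0.01 unstimulated and -0.24 after LPS (KO LPS array 2 included), with none called (limma adjusted p under 0.05). Markers of some other cell types differed with genotype. The 6 T cell markers measured had median KO minus WT differences of -0.03 unstimulated and -0.10 after LPS. For 8 macrophage and monocyte markers these were -0.10 and -0.13, and no marker of either list was called (limma adjusted p under 0.05). The mean of 11 neutrophil markers was 3.28 to 4.38 on the WT arrays and 5.58 to 8.14 on the KO arrays, and 3 of the 11 rose in KO both unstimulated and after LPS (limma adjusted p under 0.05). The mean of 10 NK cell markers was 3.77 to 4.42 on the WT and 5.51 to 5.68 on the KO arrays, with 4 of the 10 higher in both states by the same test. No neutrophil or NK marker lay below the median gene on all 12 arrays. Erythroid markers (5 genes, 4.35 to 5.96 on WT and 5.34 to 6.27 on KO arrays) and platelet markers (7 genes, 3.44 to 3.90 and 3.95 to 5.40) were also higher on average, with none past the threshold. The mean of 5 B cell and plasma cell markers went the other way, at 6.06 to 6.36 on WT and 4.80 to 6.00 on KO arrays. Their median KO minus WT difference was 0.25 unstimulated and -0.46 after LPS, and 1 of the 5 fell in KO in both states. What part these cells have in the subunit values was not tested.

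Most subunit transcripts were measured well above the dim end of the array. Of the 79 genes, 75 lay above the median gene (3.14) in the mean of at least 1 group, with Ndufa4l2 (mean 3.04 over 12 arrays) and Cox8b (3.15) close to it. The other 4 are isoforms best known from muscle, lung or testis: Cox4i2 (mean 2.83), Cox6b2 (2.82), Cox7a1 (1.94) and Cox7b2 (1.88). No filter on low values was applied, so all 79 entered every count.

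**Figure D1:**
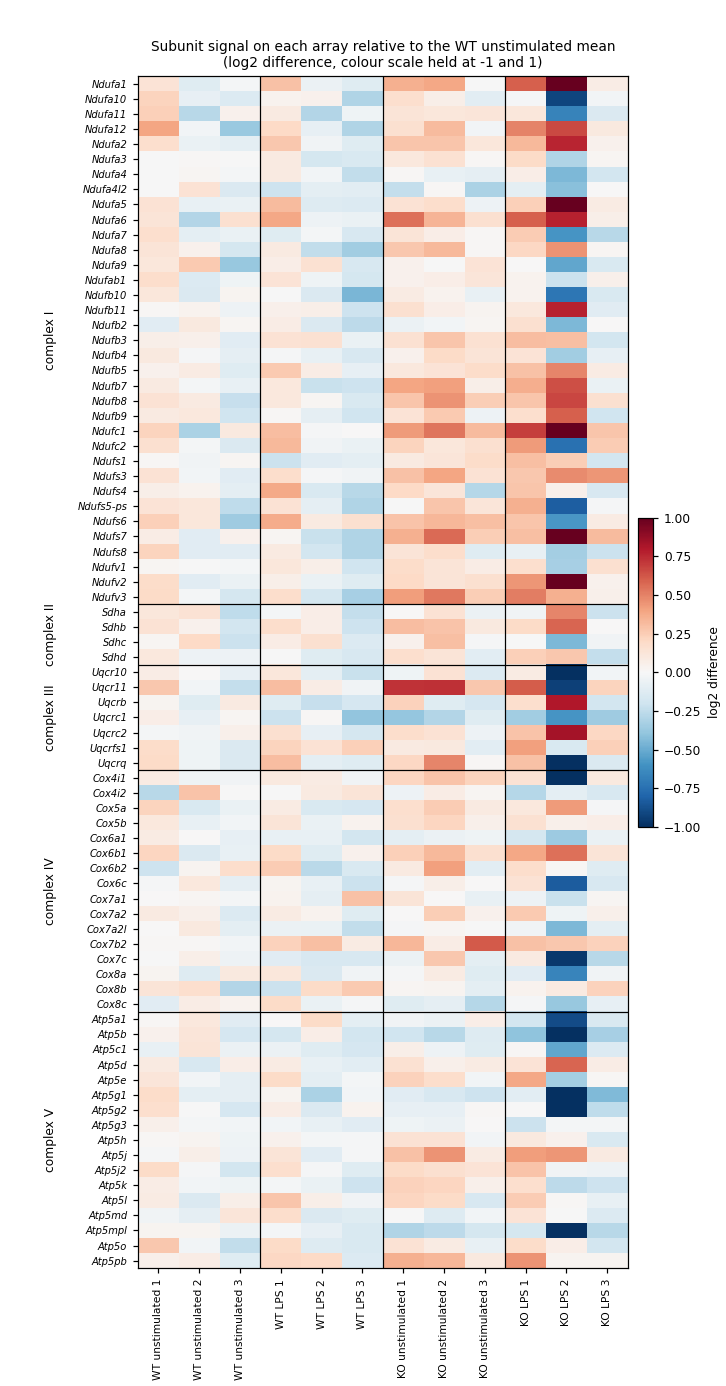
Log2 signal of each of the 79 subunit genes (rows, by complex) on each of the 12 arrays (columns, by group and replicate number), minus that gene's mean on the 3 WT unstimulated arrays; red is above and blue below, with the colour held at -1 and 1. KO LPS array 2 carries both strong red and strong blue, while the other arrays are paler, with complex I mostly red on the KO unstimulated arrays.

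Whether loss of miR-142 shifts the respiratory chain genes was asked first without stimulation. No subunit gene passed (limma, Benjamini-Hochberg adjusted p under 0.05 over all genes): 0 of 79, with 0.252% of all genes called. At an unadjusted p under 0.05 there were 4 of 79, against 8.73% of all genes: Ndufs3, Ndufv3 and Ndufb8 of complex I and Cox7b2 of complex IV, all with KO above WT. The median KO minus WT difference over the 79 genes was 0.09, and 61 of them lay above 0. Over all genes the median was 0.00 and 49.8% lay above 0. The shift was uneven: the median was 0.13 in complex I, 0.09 in complex II, 0.03 in complexes III and IV and 0.05 in complex V. The mean over the genes of a complex on each array gave a KO minus WT difference of 0.15 in complex I (SD 0.11 over 3 WT and 0.08 over 3 KO arrays), 0.11 in complex II (0.15 and 0.12), 0.09 in complex III (0.10 and 0.12), 0.07 in complex IV (0.04 and 0.06) and 0.03 in complex V (0.07 and 0.05). The difference was larger than both SDs in complexes I and IV only, and no test was made of these means.

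In complex I, 32 of 35 genes had a KO unstimulated mean above WT. All 6 measured core subunits, those conserved from bacteria, were above 0, with differences of 0.06 to 0.39, as were 25 of 26 accessory subunits. The 3 genes at or under 0 were Ndufb2, Ndufa4 and Ndufa4l2. This split into core and accessory subunits follows textbook structure and was made after the values were seen. The mean over complex I relative to WT unstimulated was 0.12, -0.03 and -0.10 on the WT arrays 1, 2 and 3 and 0.18, 0.21 and 0.07 on the KO arrays. KO array 3 thus lay below WT array 1, and the groups overlapped. In complex IV the 3 KO arrays, at 0.06, 0.14 and 0.02, lay above the 3 WT arrays, at 0.02, 0.02 and -0.04, by less than 0.01 for the closest pair. With the arrays put on the same distribution by quantile normalization, 29 of the 35 lay above 0 and the complex I median was 0.07, and over all 79 genes 48 lay above 0 with a median of 0.02.

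Single genes whose 3 KO arrays all lay above the 3 WT arrays numbered 14 of 79 without stimulation, against 8.99% of all genes. Complex I gave 10 of the 14: Ndufb3, Ndufb5, Ndufb8, Ndufc1, Ndufs1, Ndufs3, Ndufs6, Ndufs7, Ndufv1 and Ndufv3. The other 4 were Cox4i1, Cox7b2, Atp5j and Atp5pb. All 3 KO arrays lay below all WT arrays for 3 genes, Uqcrc1, Atp5g1 and Atp5mpl, against 7.87% of all genes. No p is attached to these counts.

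After LPS the 79 genes spread apart. None passed the test between KO LPS and WT LPS, with 0.445% of all genes called, and 18 had an unadjusted p under 0.05, against 13.8% of all genes. Of those 18, 14 had KO above WT and 4, all in complex V, had KO below WT. Differences ran from -0.89 for Atp5b to 0.83 for Ndufs7. The median over the 79 genes was 0.01, with 40 above 0, against -0.03 and 44.3% for all genes. By complex the medians were 0.07, 0.16, -0.15, -0.08 and -0.00 for complexes I to V.

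Without KO LPS array 2 the picture after LPS resembled that without stimulation, and the medians of complexes III and IV took the other sign. The medians for complexes I to V became 0.15, 0.02, 0.12, 0.06 and 0.03, the median over all 79 genes became 0.08, and 59 of 79 lay above 0 (31 of 35 in complex I). Again no subunit gene passed, with 0.532% of all genes called. The range narrowed: Atp5b gave -0.27 and Ndufs7 0.47.

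With all arrays, KO LPS lay wholly above WT LPS for 4 genes (Ndufb8, Ndufs3, Ndufs7 and Uqcrc2, against 6.92% of all genes) and wholly below for 4 (Cox4i2, Atp5a1, Atp5b and Atp5mpl, against 10.2%). Without KO LPS array 2, the dim Ndufa4l2, Ndufv1 and Cox4i1 joined those above (7 genes, against 11.2% of all genes). The 4 below stayed the same (against 14.7%).

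**Figure D2:**
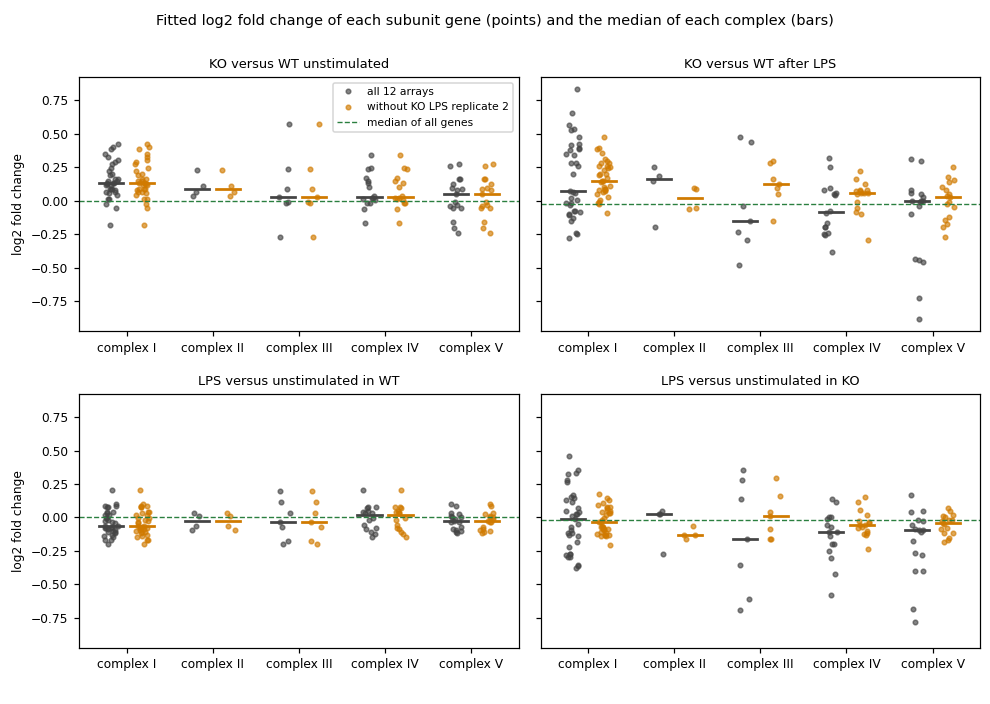
Fitted log2 fold change (vertical axis) of each subunit gene, by complex, in 4 comparisons; black points use all 12 arrays, orange points leave out KO LPS replicate 2, short bars are medians and the dashed line is the median of all genes. In the KO versus WT comparison after LPS the black points run from -0.89 to 0.83, while the orange complex III and IV medians lie above 0 at 0.12 and 0.06.

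Averaged over both stimulations, the genotype comparison had the narrowest errors, and 2.62% of all genes were called. None of the 79 subunit genes was. This fit counts same-numbered arrays of a genotype as independent, so its errors are too small if such arrays are paired. With the number within genotype as a random effect, 1.66% of all genes and no subunit gene were called. At an unadjusted p under 0.05 there were 18 of 79 (16 with KO above WT and 2 below), against 16.3% of all genes, and 12 of the 16 were complex I genes. The smallest adjusted p values were 0.0614 for Ndufs3, 0.0766 for Ndufs7, 0.0813 for Ndufv3 and 0.0907 for Ndufc1. Without KO LPS array 2, 3.7% of all genes and 1 subunit gene, Ndufs7, were called (difference 0.43, adjusted p = 0.0177), and 62 of 79 differences lay above 0 in place of 48 of 79. The median over the 79 genes was 0.05 with all arrays, 0.09 without KO LPS array 2 and 0.01 under quantile normalization, where 40 lay above 0. For complex I alone it was 0.13, 0.14 and 0.07, with 26, 32 and 20 of 35 above 0.

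The count of called subunit genes in the averaged comparison turned on single KO LPS arrays. It was 1 without KO LPS array 1 (Ndufs7, adjusted p = 0.0467, with 2.73% of all genes called) and 8 without KO LPS array 3 (with 4.83% of all genes called): Ndufs1, Ndufs7, Ndufv2, Ndufv3, Ndufa1, Ndufb7, Ndufc1 and Atp5j, with adjusted p values of 0.0186 to 0.0437. Those 8 differences ran from 0.27 for Ndufs1 to 0.70 for Ndufs7 when array 3 was left out, and array 2 was then still in the fit. After LPS alone, 3 genes were called without KO LPS array 3 (Ndufa1, Ndufc1 and Ndufv2, with 2.09% of all genes called) and none without any other single array.

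Ndufs3, a core subunit on the matrix arm of complex I, read 5.36, 5.19 and 5.10 on the WT unstimulated arrays and 5.39, 5.20 and 5.18 on the WT LPS arrays. It read 5.51, 5.61 and 5.36 in KO unstimulated and 5.48, 5.69 and 5.66 in KO LPS cells. Every KO array was above every WT array of the same stimulation, by less than 0.01 for the closest unstimulated pair. The averaged KO minus WT difference was 0.31 ± 0.08 (SE, limma adjusted p = 0.0614), and 0.29 (adjusted p = 0.0785) without KO LPS array 2.

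Ndufs7, the core subunit that carries the iron-sulfur cluster next to the ubiquinone site, read 6.44, 6.25 and 6.41 in WT unstimulated, 6.39, 6.14 and 6.07 in WT LPS, 6.73, 6.93 and 6.61 in KO unstimulated and 6.67, 7.75 and 6.68 in KO LPS cells. The KO arrays were all above the WT arrays in both states, with KO LPS array 2 far above the rest. The difference after LPS was 0.83 ± 0.24 (adjusted p = 0.164) and the averaged one 0.61 ± 0.17 (adjusted p = 0.0766). A second Ndufs7 probe set gave an averaged difference of 0.06, or 0.12 without KO LPS array 2, so the probe sets disagree in size.

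Ndufv3, an accessory subunit of the NADH-binding tip, read 7.76, 7.55 and 7.39 in WT unstimulated and 7.98, 8.09 and 7.81 in KO unstimulated cells, with no overlap. After LPS it read 7.74, 7.39 and 7.23 in WT and 8.08, 7.92 and 7.62 in KO, and the groups overlapped. Its difference was 0.40 ± 0.16 without stimulation (adjusted p = 0.481) and 0.41 ± 0.11 on average (adjusted p = 0.0813), or 0.40 without KO LPS array 2.

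Ndufc1, a small accessory subunit of the membrane arm, read 6.05, 5.52 and 5.93 in WT unstimulated, 6.15, 5.82 and 5.84 in WT LPS, 6.26, 6.37 and 6.16 in KO unstimulated and 6.53, 7.12 and 6.11 in KO LPS cells. Its averaged difference was 0.54 ± 0.15 (adjusted p = 0.0907), or 0.41 without KO LPS array 2, while its second probe set gave 0.17. Ndufb8, another membrane arm subunit, had an averaged difference of 0.35 ± 0.10 (adjusted p = 0.104), or 0.28 without that array, and its second, dim probe set gave -0.07.

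Of the remaining core subunits, none had an adjusted p under 0.2 in the averaged comparison. Ndufs1, the large iron-sulfur subunit of the NADH-oxidising module, had an averaged difference of 0.20 ± 0.09 and Ndufv2 one of 0.35 ± 0.13, with adjusted p values of 0.283 and 0.208, or 0.16 and 0.22 without KO LPS array 2. Ndufv1, which binds NADH, had 0.07 ± 0.10 and Ndufs8 -0.01 ± 0.10 (adjusted p = 0.78 and 0.981), or 0.15 and 0.02 without that array. A second Ndufv1 probe set gave 0.35, or 0.15 without it, and a second Ndufv2 probe set gave 0.15, or 0.13. Further Ndufs8 probe sets gave -0.10, -0.04 and 0.05, or 0.12, 0.04 and 0.12 without KO LPS array 2. Ndufs6, a zinc-binding accessory subunit, gave the complex I gene with the smallest unadjusted p for the difference between the LPS effects (KO minus WT): -0.59 ± 0.29, or -0.33 without KO LPS array 2.

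**Figure D3:**
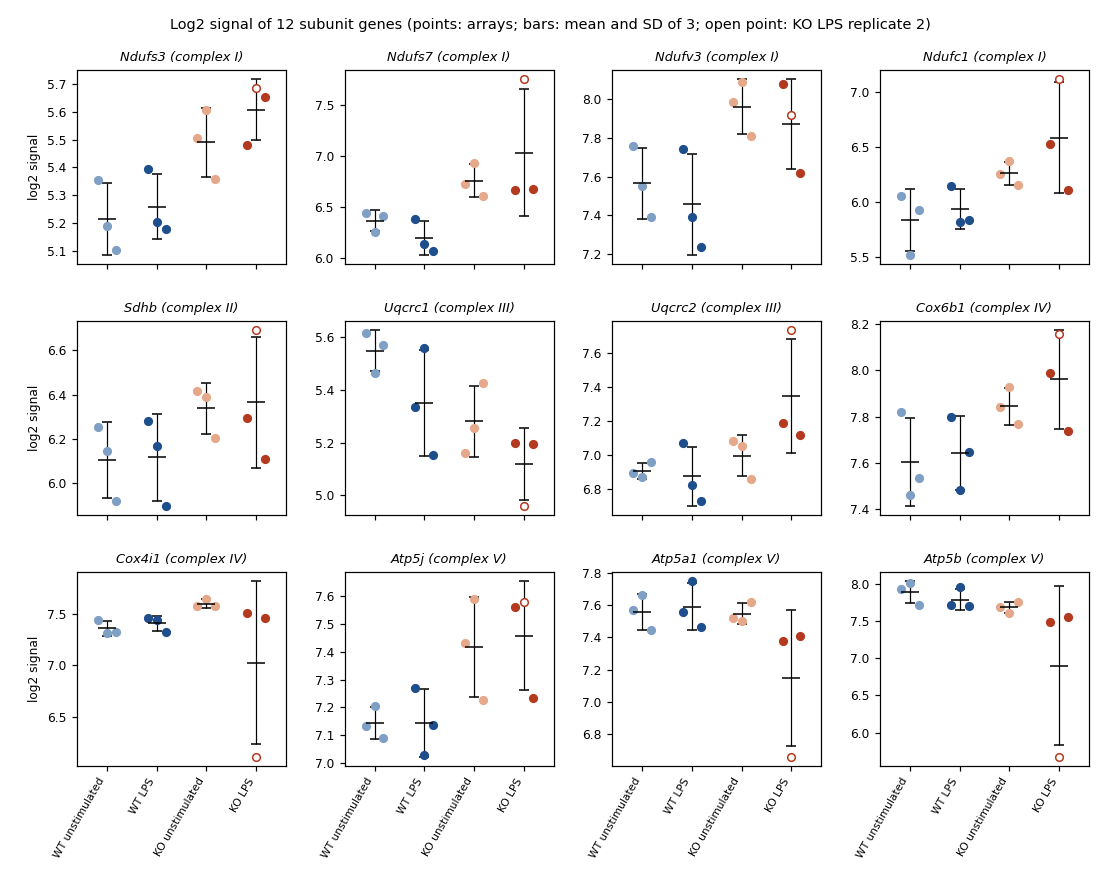
Log2 signal (vertical axis, scaled to each gene) of 12 subunit genes in the 4 groups; points are arrays, bars give the mean and SD of 3 arrays, and the open point is KO LPS replicate 2. Ndufs3 and Ndufs7 lie higher on every KO array than on every WT array of the same stimulation, and Atp5a1, Atp5b and Cox4i1 are pulled down in KO LPS cells by the open point.

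Complex II is the entry point from the citric acid cycle and its 4 subunits are all nuclear. Sdhb, the iron-sulfur subunit, read 6.25, 6.15 and 5.92 in WT unstimulated, 6.28, 6.17 and 5.90 in WT LPS, 6.42, 6.39 and 6.20 in KO unstimulated and 6.30, 6.69 and 6.11 in KO LPS cells. All group pairs overlapped, and the averaged difference was 0.24 ± 0.11 (adjusted p = 0.314), or 0.16 without KO LPS array 2. Sdha, the flavoprotein, gave 0.09 ± 0.12, and the membrane anchors Sdhc and Sdhd gave -0.04 ± 0.11 and 0.12 ± 0.10. Without KO LPS array 2 these were -0.01 for Sdha, 0.03 for Sdhc and 0.08 for Sdhd, so Sdha and Sdhc took the other sign. The brightest of the further Sdha probe sets gave -0.06, or -0.07 without that array.

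In complex III the averaged differences had both signs with all arrays: 1 of 3 core and iron-sulfur subunits and 2 of 4 small subunits lay above 0. Without KO LPS array 2 these were 2 of 3 and 4 of 4, and Uqcrc1 alone lay below 0. No complex III gene passed in either fit. Uqcrc1, a core subunit that faces the matrix, read 5.61, 5.46 and 5.57 in WT unstimulated, 5.34, 5.56 and 5.15 in WT LPS, 5.16, 5.25 and 5.42 in KO unstimulated and 5.20, 4.96 and 5.19 in KO LPS cells. All 3 KO unstimulated arrays were below all WT unstimulated arrays, and after LPS the groups overlapped. Its averaged difference was -0.25 ± 0.09 (adjusted p = 0.177), and -0.21 without KO LPS array 2. Its partner core subunit Uqcrc2 read 7.07, 6.82 and 6.73 in WT LPS and 7.19, 7.74 and 7.12 in KO LPS cells, a difference of 0.47 ± 0.16 (adjusted p = 0.219) that was 0.28 without KO LPS array 2. A second Uqcrc2 probe set gave 0.18 after LPS.

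Uqcr11, a small accessory subunit, had the highest KO minus WT difference of the 79 genes without stimulation. It read 5.44, 5.14 and 4.93 in WT and 5.90, 5.90 and 5.44 in KO unstimulated cells, and KO array 3 equalled WT array 1 to 2 decimals. The difference was 0.57 ± 0.31 (adjusted p = 0.65), and in the fit without KO LPS array 2 its SE was 0.17 and its adjusted p 0.148. After LPS it read 5.48, 5.24 and 5.13 in WT and 5.77, 4.24 and 5.39 in KO cells. The Rieske iron-sulfur protein Uqcrfs1 had an averaged difference of -0.01 ± 0.10, or 0.07 without KO LPS array 2.

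Complex IV subunits come in isoforms, and the isoform genes were followed by name. Cox4i1, the ubiquitous form of subunit 4, read 7.45, 7.32 and 7.32 in WT unstimulated, 7.46, 7.44 and 7.33 in WT LPS, 7.57, 7.65 and 7.58 in KO unstimulated and 7.51, 6.11 and 7.46 in KO LPS cells. Without stimulation all KO arrays were above all WT arrays by a mean of 0.24 ± 0.28 (adjusted p = 0.889); with KO LPS array 2 left out the SE was 0.09 and the adjusted p 0.267. The averaged difference was -0.07 with all arrays and 0.16 without that array. Cox4i2, the oxygen-responsive form, stayed dim, at 2.57 to 3.14 over the 12 arrays, with an averaged difference of -0.12 ± 0.09 (adjusted p = 0.564), or -0.14 without that array.

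The averaged differences of the other isoform genes followed by name were small. Cox6a1 had -0.08 ± 0.07, Cox7a1 -0.07 ± 0.08, Cox7a2 0.10 ± 0.08, Cox8a -0.13 ± 0.11 and Cox8b 0.01 ± 0.11, with adjusted p values of 0.593 to 0.969. Without KO LPS array 2 they were -0.04 for Cox6a1 and Cox7a1, 0.13 for Cox7a2, -0.03 for Cox8a and 0.02 for Cox8b. A second Cox7a2 probe set gave -0.06, or 0.08 without that array. Cox7a2l had -0.04 ± 0.08, and 0.03 without that array. Ndufa4, named for complex I but now placed in complex IV, had -0.09 ± 0.09, and its hypoxia-inducible relative Ndufa4l2 had -0.11 ± 0.09, or -0.03 and -0.05 without it.

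Cox6b1, which joins the monomers of complex IV into a dimer, had the smallest unadjusted p of the complex in the averaged comparison. It read 7.82, 7.46 and 7.53 in WT unstimulated, 7.80, 7.48 and 7.65 in WT LPS, 7.84, 7.93 and 7.77 in KO unstimulated and 7.99, 8.16 and 7.74 in KO LPS cells, with overlap in both states. The averaged difference was 0.28 ± 0.10 (adjusted p = 0.169), or 0.23 without KO LPS array 2. Its second probe set gave 0.05 with all arrays and 0.13 without that array. Cox7b2, known from testis, lay at 1.64 to 2.29 on the 12 arrays, far below the median gene.

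Complex V joins a catalytic head to a ring in the membrane. Atp5b, the catalytic beta subunit, read 7.93, 8.01 and 7.72 in WT unstimulated, 7.71, 7.95 and 7.70 in WT LPS, 7.69, 7.61 and 7.75 in KO unstimulated and 7.48, 5.68 and 7.55 in KO LPS cells. The KO LPS arrays were all below the WT LPS arrays, with array 2 lower than any other by more than 1 log2 unit. The difference after LPS was -0.89 ± 0.37 (adjusted p = 0.316), and -0.27 ± 0.12 (adjusted p = 0.497) without array 2. The alpha subunit Atp5a1 read 7.56, 7.75 and 7.46 in WT LPS and 7.38, 6.66 and 7.41 in KO LPS cells, a difference of -0.44 ± 0.17 (adjusted p = 0.296) that was -0.20 without array 2.

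The 3 genes for the proton-carrying subunit c (Atp5g1, Atp5g2 and Atp5g3) all had averaged differences below 0, at -0.31, -0.39 and -0.02, or -0.16, -0.09 and -0.04 without KO LPS array 2. None passed. Atp5j, coupling factor 6 of the stalk, ran the other way and read 7.13, 7.20 and 7.09 in WT unstimulated, 7.27, 7.03 and 7.13 in WT LPS, 7.43, 7.59 and 7.23 in KO unstimulated and 7.56, 7.58 and 7.23 in KO LPS cells. The KO unstimulated arrays were all above WT, and after LPS the groups overlapped at 7.23 and 7.27. Its averaged difference was 0.29 ± 0.09 (adjusted p = 0.117), and 0.26 without KO LPS array 2. Atp5mpl, a small membrane subunit, had -0.34 ± 0.13 (adjusted p = 0.228), and -0.19 without that array. Outside the symbol rule, the natural inhibitor of the ATP synthase Atpif1 had 0.30 ± 0.15 (adjusted p = 0.361), or 0.26 without it.

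**Figure D4:**
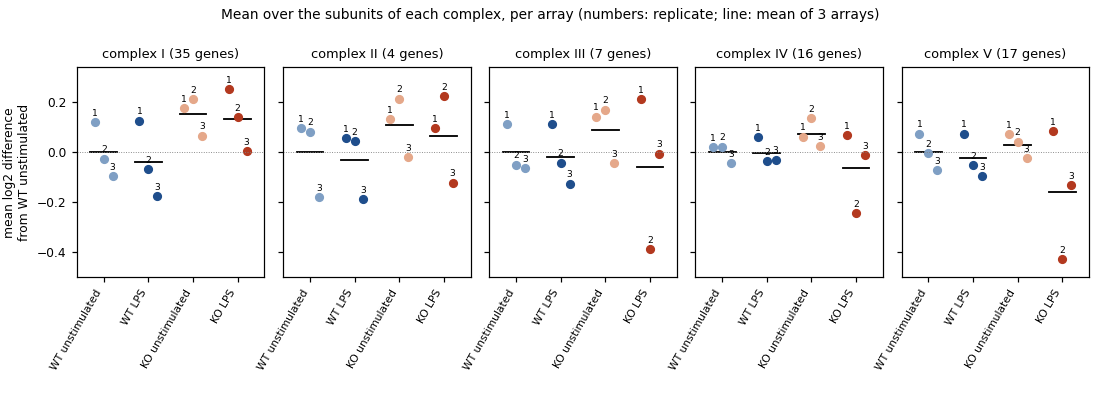
Mean over the subunit genes of each complex on each array, relative to the WT unstimulated mean of each gene (vertical axis, log2 difference); points are arrays numbered by replicate and lines are means of 3 arrays. Unstimulated WT and KO arrays overlap in complexes I, II, III and V and lie apart by less than 0.01 in complex IV, array 1 lies above array 3 in all 4 groups in each complex, and KO LPS replicate 2 is the lowest point in complexes III, IV and V.

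The LPS differences of the subunit genes in WT cells were small. No subunit gene passed, with 0.117% of all genes called, and none had an unadjusted p under 0.05, against 5.12% of all genes. Differences between WT LPS and WT unstimulated ran from -0.20 for Ndufb10 to 0.21 for Ndufs6, with a median of -0.03 and 31 of 79 above 0 (all genes 0.00 and 50.9%; under quantile normalization 18 of 79). The WT LPS arrays were all above the unstimulated ones for Cox7b2 (6.81% of all genes) and all below for Ndufs1 and Cox7c (5.09% of all genes). Ndufs1 read 4.04, 3.997 and 4.05 before and 3.81, 3.92 and 3.93 after LPS, a difference of -0.14 ± 0.12 (adjusted p = 1.0). For all 79 genes the 95% interval of the WT difference lay within 1 log2 unit of 0, and for 57 within 0.5.

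In KO cells LPS also left no subunit gene past the threshold, with 0.392% of all genes called. At an unadjusted p under 0.05 there were 2, Uqcrc2 and Atp5a1, against 9.47% of all genes. The median was -0.09 with 30 of 79 above 0, or -0.05 with 27 above 0 without KO LPS array 2. By complex it was -0.01, 0.03, -0.16, -0.11 and -0.09 for complexes I to V, and -0.04, -0.13, 0.01, -0.06 and -0.04 without KO LPS array 2. The KO LPS arrays were all above the unstimulated ones for Uqcrc2 and Cox8b (5.75% of all genes) and all below for Ndufs6, Cox4i1, Cox4i2, Cox7a2l, Atp5a1 and Atp5b (7.71% of all genes). Without KO LPS array 2, Ndufc2, Uqcrfs1 and Cox8c joined those above (5 genes, 11.0% of all genes) and the 6 below stayed the same (13.3%). With KO LPS array 2 left out, 0.573% of all genes and no subunit gene were called in KO, and 0.392% and no subunit gene in WT.

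Within a genotype, an unstimulated array and the LPS array with its number resembled each other, so the LPS effects were also fitted with that number as a block. This pairing raised the genes called from 0.117% to 0.439% in WT and from 0.392% to 0.866% in KO, and no subunit gene was among them (smallest adjusted p 0.858 and 0.267). In KO, 14 of 79 subunit genes then had an unadjusted p under 0.05, against 13.1% of all genes. The LPS effect in KO was compared with that in WT directly. No gene on the array was called for this difference (0.0%; 0.0% without KO LPS array 2, and 0.0% with the block), no subunit gene had an unadjusted p under 0.05 against 3.74% of all genes, and the median over the 79 genes was -0.06, or -0.01 without KO LPS array 2. Without that array the unstimulated genotype comparison, which shares its estimate of spread, called 0.971% of all genes and no subunit gene.

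The number of an array within its group went with the level of the subunit genes. Array 1 read above array 3 for 68 of 79 genes in WT unstimulated, 73 in WT LPS, 57 in KO unstimulated and 67 in KO LPS cells, while among all genes the shares were 44.9%, 48.3%, 48.7% and 53.3%. The mean over the 79 genes, relative to WT unstimulated, was 0.09, -0.01 and -0.08 on the WT unstimulated arrays, 0.10, -0.05 and -0.12 on the WT LPS arrays, 0.13, 0.16 and 0.02 on the KO unstimulated arrays and 0.17, -0.10 and -0.04 on the KO LPS arrays. Within WT this span between arrays 1 and 3 was larger than the 0.09 median difference between genotypes. The labels do not say whether a number marks a shared day or litter.

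On KO LPS array 2 the subunit genes took both ends of the scale. It was the lowest of the 12 arrays for 38 and the highest for 23 of the 79 genes, 77.2% in all, against 42.1% of all genes. Its difference from the mean of KO LPS arrays 1 and 3 was -1.84 for Atp5b, -1.81 for Atp5g2, -1.59 for Uqcrq and -1.37 for Cox4i1, and it was 1.15 for Ndufa5 and 1.08 for Ndufs7. The SD over the 79 genes of their differences from WT unstimulated was 0.72 on this array and 0.11 to 0.22 on the others. Probe sets of one gene parted as well: for the 39 genes with several, the median range between their differences from WT unstimulated was 0.84 on this array and 0.09 to 0.19 on the others.

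**Figure D5:**
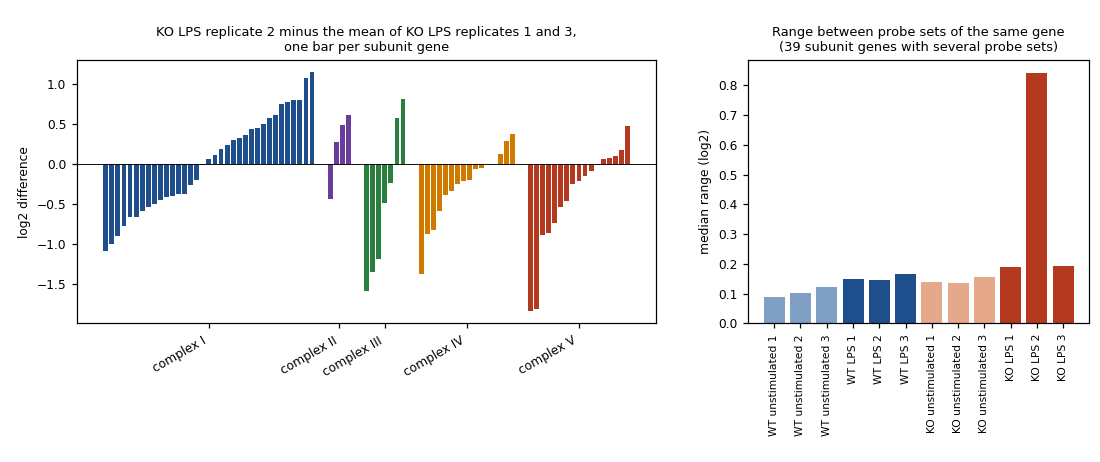
Left: KO LPS replicate 2 minus the mean of KO LPS replicates 1 and 3 (log2 difference, vertical axis), 1 bar per subunit gene, sorted within each complex. Right: median range between probe sets of the same gene, each taken relative to its WT unstimulated mean (which lowers the WT unstimulated bars), for 39 genes on each array; the bar of KO LPS replicate 2 stands at 0.84 and all others under 0.20.

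The precision set a limit on what could be seen. The 95% intervals of the fitted differences had a median half-width of 0.33 for comparisons of 2 groups and 0.23 for the averaged genotype comparison. For the averaged comparison 78 of the 79 intervals lay within 1 log2 unit of 0 and 58 within 0.5. The exception was Atp5b, with an interval of -1.11 to 0.02. For the difference between LPS effects the median half-width was 0.47, and 68 intervals lay within 1 log2 unit.

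Other genes of the pathway were read from lists. Among 9 electron carriers and related enzymes, 16 complex I, 4 complex II, 5 complex III, 20 complex IV and 5 complex V assembly factors, 16 regulators of mitochondrial biogenesis, 8 carriers and uncoupling proteins and 15 citric acid cycle enzymes, 1 of 98 genes passed, in the averaged genotype comparison alone, where 2.62% of all genes were called. Vdac1, the main channel of the outer mitochondrial membrane, read 8.07, 8.05 and 8.03 in WT unstimulated, 8.03, 8.03 and 7.90 in WT LPS, 8.34, 8.41 and 8.38 in KO unstimulated and 8.16, 8.41 and 8.20 in KO LPS cells. All KO arrays were above all WT arrays, and Vdac1 rose in KO by 0.30 ± 0.07 on average (limma adjusted p = 0.0403), and by 0.26 (adjusted p = 0.0468) without KO LPS array 2. Both values come from fits that count same-numbered arrays of a genotype as independent. If such arrays are paired, these errors are too small, and both adjusted p values lie close to the threshold.

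The genes next to Vdac1 by adjusted p in these lists, named after their values were seen, were Mdh2, malate dehydrogenase of the citric acid cycle, and Slc25a4, an exchanger of ADP and ATP. Mdh2 had an averaged difference of 0.27 ± 0.07 (adjusted p = 0.0772) and Slc25a4 one of -0.26 ± 0.07 (adjusted p = 0.0882), and neither passed. Without KO LPS array 2 they were 0.23 and -0.26. The citric acid cycle enzymes had a median averaged difference of 0.09 with 12 of 15 above 0 (0.06 and 11 without that array), beside 0.05 and 48 of 79 for the subunit genes and -0.02 and 45.3% for all genes. No assembly factor, regulator, electron carrier or citric acid cycle gene passed in any of the 6 comparisons.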

How the data were processed

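RNA from spleen DCs was amplified with oligo(dT) and random primers and hybridised to 12 arrays of 3 biological replicates per group. The deposited log2 values were summarised with RMA by the authors, per the submitters' processing notes; the scanner files, scan dates and slides were not used here. Of 45141 probe sets, 28898 carried 1 gene symbol in the platform annotation, 551 several, 15588 none and 104 were controls; 28689 of the first matched a RefSeq gene, which altered no symbol. The probe set with the highest mean stood for a gene. limma 3.58.1 (R 4.3.3) fitted the 4 group means on all 17097 genes with 8 residual degrees of freedom, no filter and Benjamini-Hochberg adjustment, and was tested on simulated data. Errors are SE of the fit unless called SD. The number of arrays limits the precision.

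Unstimulated and LPS arrays of one number deviated together within each genotype (correlations 0.385, 0.230 and 0.422 in WT, 0.305, 0.284 and 0.440 in KO). Fits with the number as a block within genotype were therefore added. The main fit has no block, so its p values, SE and intervals ignore any such pairing. The pairing is read from the values, since the labels give a separate mouse name to each array. The subunit genes and lists were chosen with earlier results of these data known. Genes were named by rule as the smallest p per complex and comparison, plus the isoform genes; the others named for examples were picked after their values were seen. Alternatives left out each array, changed the probe set rule, scaling, dim-gene filter (9078 genes left), eBayes options, array weights, symbols and block.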

Additional observations from a re-analysis of the deposited data

How the results depend on the processing

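Over 23 settings the median over the 79 genes kept between 0.02 and 0.14 for KO against WT unstimulated, -0.06 and 0.08 after LPS, -0.09 and 0.02 for LPS in WT, -0.14 and -0.03 for LPS in KO, 0.01 and 0.10 for the averaged genotype comparison and -0.13 and 0.02 for the difference of LPS effects. Leaving out 1 array at a time, the subunit genes called ranged from 0 to 8 in the averaged comparison and from 0 to 3 after LPS. The averaged comparison called 1 gene with the mean of all probe sets (Ndufs3, 0.31, adjusted p = 0.0453, with 3.03% of all genes called) and 1 with array weights (Ndufs7, adjusted p = 0.0306, with 4.26%), where the complex III median after LPS was 0.084. With the array number as a replicate block over all arrays it called 2, Ndufv3 (adjusted p = 0.0114) and Ndufb8 (adjusted p = 0.0344), with 5.14% of all genes called. Across genotypes same-numbered arrays of one stimulation had correlations of -0.01 to 0.22 over all genes, beside 0.23 to 0.44 within a genotype. Whether same-numbered arrays of the 2 genotypes share a day or litter was not tested. The block within genotype changed no call on a subunit gene.

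Leaving out 1 array, the medians after LPS ran from -0.0184 to 0.229 in complex I, 0.0171 to 0.32 in complex II, -0.27 to 0.12 in complex III and -0.14 to 0.0577 in complex IV. In complex II they ran from -0.13 to 0.17 for LPS in KO and -0.12 to 0.20 for the difference of LPS effects, and in complex IV from -0.0783 to 0.0474 for the averaged comparison. With the replicate block within genotype and KO LPS array 2 left out, chosen after seeing the data, the complex IV median for LPS in KO was -0.0127, and the difference of LPS effects had medians of 0.13 in complex III and 0.0398 in complex IV. The cause was not tested. No subunit gene was called in the main fit, so no call could reverse. Medians carry no threshold, and several of those above changed sign between settings. With 3 arrays a group, differences under about 0.33 lie within the typical interval.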
